A study of Mus musculus with 12 samples.

Results

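The genes described here regulate or carry out apoptosis, the programmed death of a cell: members of the Bcl2 family, initiator caspases, the death receptor Fas and the adaptors Fadd and Cradd. They were chosen by name from a list of 9 symbols, and 8 of these are rows of the deposited count table, which holds 545 endogenous genes. Bcl2l11 was not analysed here. Of the 8 genes, 7 lay above background often enough to be tested; Fas did not.

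The counts come from microglia, the resident macrophages of the brain, sorted from the hippocampus of male Balbc mice at postnatal day 28 (a Percoll gradient followed by flow cytometric sorting). One group held 6 control pups. The other held 6 pups exposed to brief daily separation (BDS), an early-life stress in which pups spent 15 min of each day away from the mother between postnatal days 1 and 21. The labels name no transgene and give no litter for each pup, and control and BDS pups came from different litters. RNA of each sample (2 ng) was reverse transcribed, and the cDNA went through 5 PCR rounds before it was measured on NanoString's nCounter panel of mouse immune genes, which counts a fluorescent barcode for each transcript. A lower count in such bulk RNA can mean fewer cells of a type or less RNA per cell, and these cannot be told apart.

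Apoptosis is started by either of a pair of routes. In the mitochondrial route, Bax opens the outer membrane of mitochondria and Bcl2 holds it back, and the caspases that dismantle the cell are switched on downstream. In the death-receptor route, ligand-bound Fas recruits Fadd, which brings in Casp8; active Casp8 can cut Bid, and the fragment carries the signal to mitochondria. Casp2 is activated on a separate platform in which Cradd, also called RAIDD, is the adaptor. In microglia, apoptosis takes part in setting cell numbers as the brain matures, and Casp8 also has roles in inflammatory signalling and in restraining necroptosis.

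Total counts were 893936 to 1409376 per control sample and 641756 to 1171355 per BDS sample. The microglial markers fixed for this work were present in 7 of 7 cases on the panel, with summed levels of 216000 to 230000 normalized counts for controls and 205000 to 268000 for BDS. Of 12 T cell markers 4 were present, with summed levels of 154 to 220 in controls and 140 to 251 in BDS, and Cd3d, Cd3e, Cd7, Cd28 and Zap70 were above background in no sample. Of 11 B cell markers 5 were present, at 3710 to 4280 and 3580 to 5270, and Cd22, Pax5 and Cr2 were above background in no sample. Most of that sum was Blnk (means of 3078 in controls and 3462 in BDS) and Btk (612 and 671), while Cd79b averaged 161 and 188. BDS 21, BDS 25 and BDS 55 had the lowest counts of the housekeeping genes used for scaling (factors of 0.609, 0.649 and 0.854), and their Rpl19 to Polr2a count ratios of 0.79, 0.606 and 0.465 lay above the 0.113 to 0.267 of the other 9 samples. The fold changes and ratios of the apoptosis genes are therefore also given without these 3 samples.

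The promoter windows of all 8 genes, the 250 bases before the annotated start, were taken from RefSeq (GRCm38.p6). Those of Bax and Cradd are printed because these genes had the highest and the lowest log2 fold change of the 7 tested. Capitals mark letters that match a searched motif on either strand: GGGCGG (GC box), CACGTG (E-box), TGACGT (core of the cAMP response element), CCAAT or TATAAA. The Bax window is chr7:45466899-45467148 and the Cradd window chr10:95324138-95324387, both on the minus strand and written 5′ to 3′.
Bax: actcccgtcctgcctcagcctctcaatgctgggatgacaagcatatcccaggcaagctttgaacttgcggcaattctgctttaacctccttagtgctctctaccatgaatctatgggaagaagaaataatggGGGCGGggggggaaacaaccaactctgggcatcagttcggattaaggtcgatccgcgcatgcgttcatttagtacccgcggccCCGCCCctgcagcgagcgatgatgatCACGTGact
Cradd: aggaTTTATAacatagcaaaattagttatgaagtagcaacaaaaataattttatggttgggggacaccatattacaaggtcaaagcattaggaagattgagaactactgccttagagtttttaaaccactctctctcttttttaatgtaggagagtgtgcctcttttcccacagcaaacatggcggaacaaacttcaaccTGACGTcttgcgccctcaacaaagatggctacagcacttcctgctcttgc

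The Bax window holds 2 GC boxes and 1 E-box, and 54% of its bases are G or C. The Cradd window holds no GC box and 40% G or C, with 1 cAMP response element core and 1 TATA box match far from the start, beginning at -246. GC boxes were found in 6 of the 8 windows (Bax, Bcl2, Bid, Casp2, Fadd and Fas), against 32.7% of all 32851 mouse windows in the table and 45.4% of the 328 windows of tested panel genes. The Bcl2 window held 7 of them, at 74.8% G or C. The E-box was found in 2 of the 8 windows (Bax and Fas; 6.02% of all windows), the cAMP response element core in 2 (Bcl2 and Cradd; 6.47%), CCAAT in 2 (Casp2 and Casp8; 33.8%) and TATAAA in 1 (Cradd; 12.4%). These matches describe letters and not bound sites.

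No apoptosis gene differed between BDS and control past the adjusted threshold of 0.05 in edgeR's quasi-likelihood test, where 0 of 357 tested genes were called (0%). At an unadjusted p under 0.05, 0 of the 7 apoptosis genes and 12.3% of the panel passed in edgeR (11.5% with lower and 0.84% with higher BDS levels). DESeq2 with the same scaling (12.9% of the panel) and limma on log2(value + 1) (14% of the panel) also had 0 of the 7 under that level. With voom and quality weights it was 1 of the 7, Casp2, where 26.9% of the panel passed. The groups overlapped for each of the 7 genes, while 1.12% of the panel did not overlap. Of the 7, 5 had log2 fold changes below 0 and 2 above, with a median of -0.066. Over the panel 66.1% lay below 0 and 33.9% above, and the median was -0.10. Scaled by TMM, which centres the tested genes themselves, 3 of the 7 lay below 0 and 4 above (52.1% of all tested genes lay below 0), with medians of 0.030 for the 7 genes and -0.0093 for the panel.

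**Figure D1:**
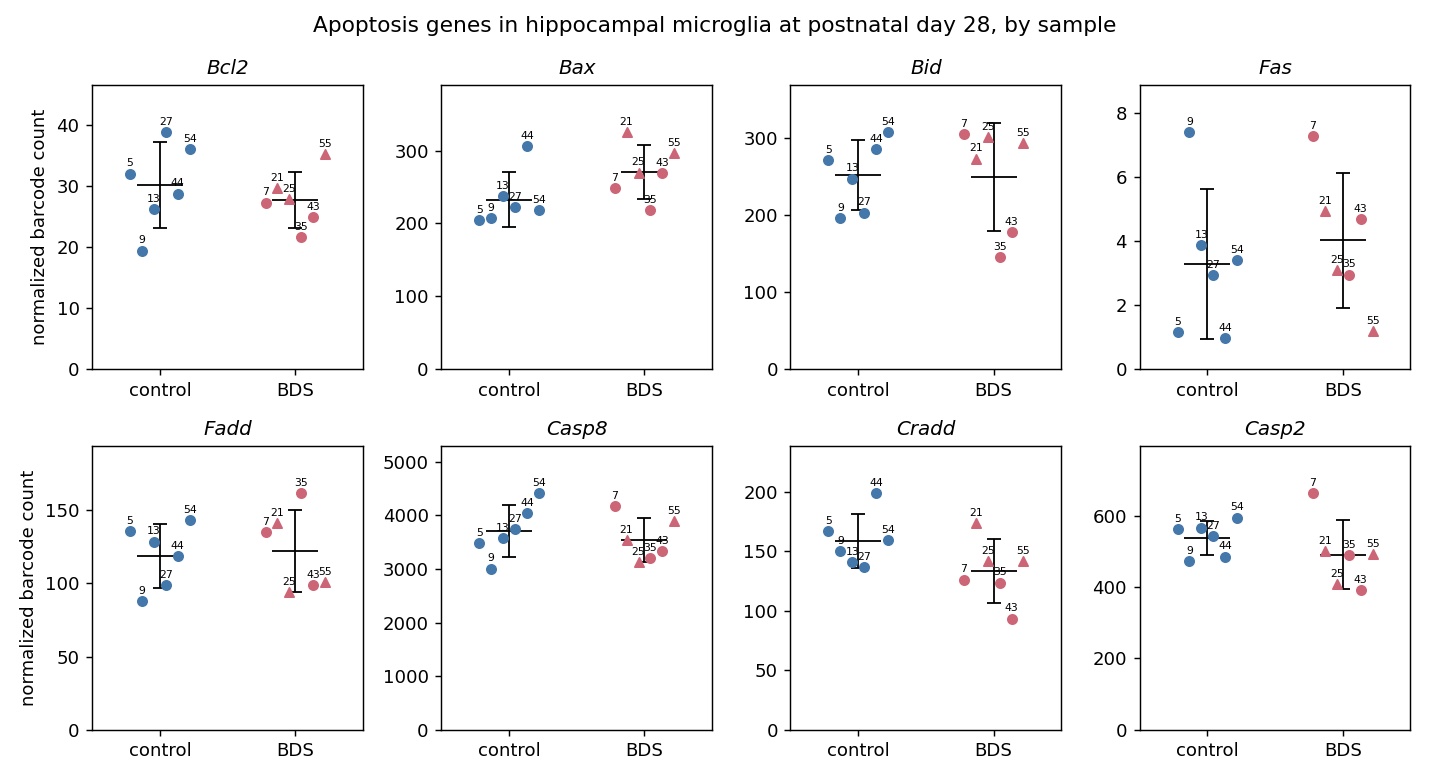
Normalized barcode counts (vertical axis, from 0) of the 8 apoptosis genes in the 6 control (blue) and 6 BDS (red) samples, labelled with the sample number; the bar is the mean and the whiskers the SD, and triangles mark BDS 21, BDS 25 and BDS 55. The groups overlap in each panel, Bid of BDS 35 and BDS 43 sits below the lowest control, and Fas lies at a few counts throughout.

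Bcl2, which blocks the opening of mitochondria and so promotes survival, was counted close to background. Its raw counts were 21 to 53 in controls and 18 to 32 in BDS. It exceeded the background, the mean of the negative-control probes plus 2 SD, in 6 of 6 controls and 4 of 6 BDS samples; BDS 21 and BDS 25, with 18 counts each, were under theirs (18.2 and 20.0). The authors' deposited table lists it above background in 100% of samples. After scaling, controls ran from 19.4 through a median of 30.4 to 38.8 normalized counts and BDS samples from 21.6 through 27.5 to 35.1. The BDS range lay inside the control range. The log2 fold change was -0.14 ± 0.19 (SE; edgeR, adjusted p = 0.71), with a 95% interval from a fold of 0.689 to 1.19, and -0.30 ± 0.23 (SE) without BDS 21, BDS 25 and BDS 55. The spread within groups, a CV of 23.3% in controls and 16.5% in BDS, was near the 16.8% and 20.0% that counting alone gives at these mean counts.

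Bax, the pore-forming partner that Bcl2 restrains, had the highest log2 fold change of the 7. Controls ran from 205 through a median of 220 to 306 normalized counts, and BDS samples from 218 through 269 to 325. In controls 5 samples lay between 205 and 238 and control 44 stood apart at 306, while 5 of 6 BDS samples exceeded the control mean and 1, BDS 21, exceeded the highest control. The means were 233 ± 38 and 271 ± 37 (SD, n = 6 each), a log2 fold change of 0.22 ± 0.13 (SE; edgeR, adjusted p = 0.44; 95% interval 0.961-fold to 1.41-fold). Relative to the panel median it was 0.32. With TMM scaling it was 0.32 ± 0.12 (SE; unadjusted p = 0.017, adjusted p = 0.52), a level at which 8.96% of the panel also had an unadjusted p under 0.05.

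The value of Bax was lower without the 3 samples with low housekeeping counts. Without BDS 21, BDS 25 and BDS 55 it was 0.076 ± 0.15 (SE), with the other 3 BDS samples at 218, 249 and 269 normalized counts. With 1 of these samples left out, it was 0.16 (without BDS 21), 0.22 (without BDS 25) or 0.19 (without BDS 55). With the Rpl19 to Polr2a ratio as a covariate it was 0.13, and with the housekeeping count as a covariate 0.14. Before scaling, mean Bax counts were 266 in controls and 245 in BDS. Scaled to the positive-control probes, which do not adjust for the amount of RNA and place the panel median at -0.50, the sign turned, to -0.20. The authors' deposited table gives a fold of 1.18 and a p of 0.073 for Bax.

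Bid, the link from death receptors to mitochondria, split the BDS samples. Controls ran from 196 through a median of 259 to 307 normalized counts and BDS samples from 145 through 283 to 304. BDS 35 and BDS 43, at 145 and 178, lay below every control, and the other 4 BDS samples lay between 273 and 304, above the control mean of 251. The CV was 17.9% in controls and 27.9% in BDS, against 5.89% and 6.74% from counting alone. The group means were almost equal, 251 ± 45 and 249 ± 69 (SD, n = 6), with a log2 fold change of -0.019 ± 0.19 (SE; edgeR, adjusted p = 0.95). The 95% interval, 0.744-fold to 1.31-fold, leaves room for changes in either direction. Without BDS 21, BDS 25 and BDS 55 the value was -0.27 ± 0.24 (SE).

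**Figure D2:**
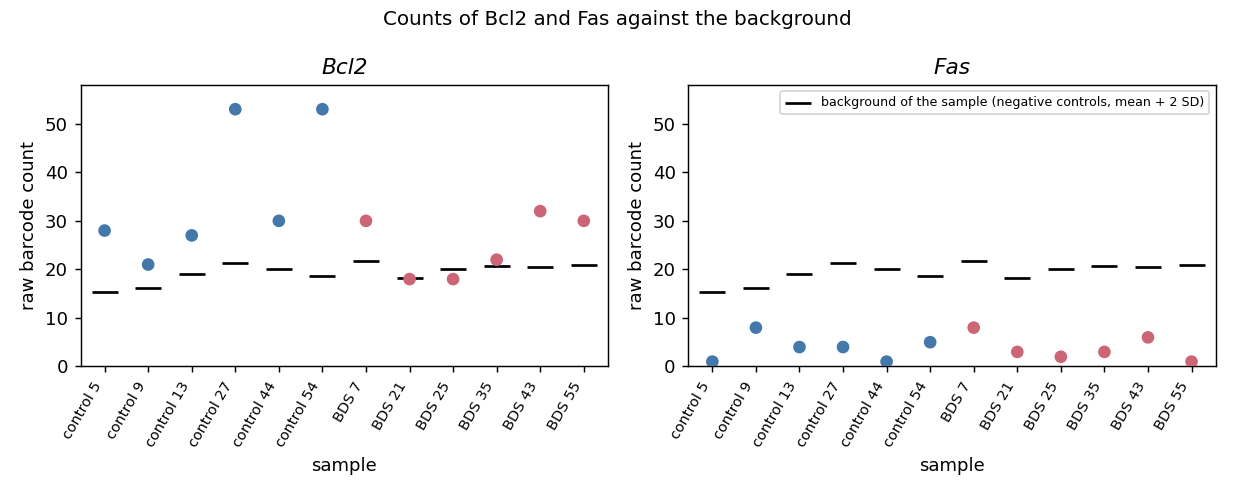
Raw barcode counts (vertical axis) of Bcl2 and Fas in each of the 12 samples, controls in blue and BDS in red; black bars are the background of the same sample, the mean of its negative-control probes plus 2 SD. Bcl2 lies above the bar in 10 of 12 samples and Fas in 0 of 12.

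Fas, the death receptor, was not detected above background. Its raw counts were 1 to 8 in controls and 1 to 8 in BDS, below backgrounds of 15.3 to 21.8 in all 12 samples. It was left out of the test, and no fold change is given. The authors' deposited table lists it above background in 0% of samples. Its ligand Fasl was above background in 0 of 12 samples as well.

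Fadd, the adaptor of Fas and related receptors, ran from 87.7 to 144 normalized counts over the controls (median 124) and from 94.0 to 162 over the BDS samples (median 118). BDS 35 was the highest of all 12 samples, and BDS 25, BDS 43 and BDS 55 lay at 94.0, 98.9 and 101. The log2 fold change was 0.039 ± 0.17 (SE; edgeR, adjusted p = 0.91; 95% interval 0.795-fold to 1.33-fold), and 0.15 ± 0.21 (SE) without BDS 21, BDS 25 and BDS 55.

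Casp8, the initiator caspase that Fadd recruits, ran from 3010 to 4420 normalized counts over the controls (median 3664) and from 3136 to 4177 over the BDS samples (median 3437). All 6 BDS samples lay within the control range. The log2 fold change was -0.066 ± 0.10 (SE; edgeR, adjusted p = 0.74), and the 95% interval, 0.82-fold to 1.11-fold, was the narrowest of the 7 genes. Its CVs of 13.1% and 11.7% compare with 1.52% and 1.75% from counting alone. Without BDS 21, BDS 25 and BDS 55 the value was -0.057 ± 0.13 (SE). The sign changed with TMM scaling, to 0.030.

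Cradd, the adaptor of Casp2, had the lowest log2 fold change of the 7. Controls ran from 137 through a median of 155 to 199 normalized counts and BDS samples from 93.4 through 134 to 174. BDS 7, BDS 35 and BDS 43, at 126, 124 and 93.4, lay below every control, and BDS 21, BDS 25 and BDS 55, at 174, 142 and 142, lay inside the control range. The means were 159 ± 23 and 134 ± 27 (SD, n = 6), a log2 fold change of -0.26 ± 0.15 (SE; edgeR, adjusted p = 0.44; 95% interval 0.668-fold to 1.05-fold). Relative to the panel median it was -0.16, and with TMM scaling it was -0.16 ± 0.14 (SE).

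Without the samples with low housekeeping counts the values of Bax and Cradd both went down, which took Bax toward 0 and Cradd further from 0. Leaving out BDS 21, BDS 25 and BDS 55 gave Cradd a log2 fold change of -0.47 ± 0.17 (SE, edgeR unadjusted p = 0.017, adjusted p = 0.79). In that setting 20 of 362 tested genes had an unadjusted p under 0.05. Cradd was at -0.45 ± 0.14 with the housekeeping count as a covariate (unadjusted p = 0.0077, adjusted p = 0.40), where 22 of 357 genes were under 0.05. With the Rpl19 to Polr2a ratio it was -0.44 ± 0.17 (adjusted p = 0.79). With 1 sample left out, it ran from -0.35 (without BDS 21) to -0.17 (without BDS 43). None passed the adjusted threshold. The part of RNA amount in these differences was not tested. The authors' deposited table gives Cradd a fold of 0.85 and a p of 0.11.

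Casp2, the caspase that Cradd binds, did not follow its adaptor in each sample. Controls ran from 474 through a median of 553 to 595 normalized counts and BDS samples from 392 through 491 to 664. BDS 25 and BDS 43, at 409 and 392, lay below every control, and BDS 7, at 664, lay above every control. The CV was 8.94% in controls and 19.7% in BDS. The log2 fold change was -0.13 ± 0.12 (SE; edgeR, adjusted p = 0.64; 95% interval 0.761-fold to 1.10-fold). Without BDS 7 it was -0.24 ± 0.10 (SE; edgeR, unadjusted p = 0.034, adjusted p = 0.15). Of the 351 genes tested without BDS 7, 95 had an unadjusted p under 0.05, 87 lower and 8 higher in BDS. Casp2 was at -0.063 ± 0.16 (SE) without BDS 21, BDS 25 and BDS 55.

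**Figure D3:**
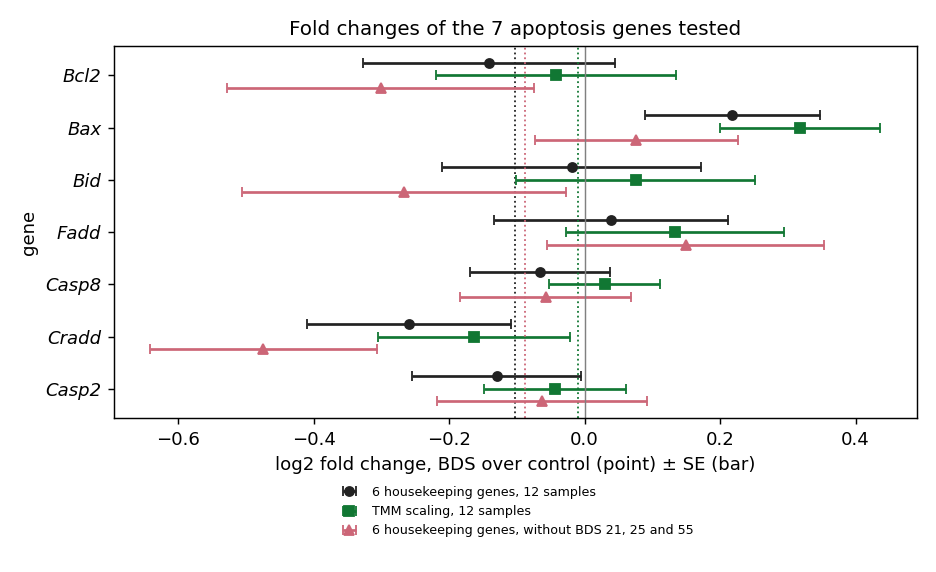
Log2 fold changes of BDS over control (horizontal axis; bars are the SE) of the 7 apoptosis genes tested, with housekeeping scaling (black), with TMM scaling (green) and without BDS 21, BDS 25 and BDS 55 (red); dotted lines are the panel median under each. Bax goes from 0.22 to 0.076 and Cradd from -0.26 to -0.47 when the 3 samples are left out.

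The pattern over samples differed from gene to gene. Control 9 lay below the control mean in 7 of the 7 genes tested, with a median log2 difference of -0.29 where the panel median of that sample was -0.13. BDS 35 and BDS 43 each lay below the control mean in 6 of the 7, with medians of -0.20 and -0.24 against panel medians of -0.13 and -0.10. The exceptions were Fadd in BDS 35, at 0.47 above the control mean, and Bax in BDS 43, at 0.22. BDS 7 and BDS 21 lay below in 2 of 7. With TMM scaling the medians of BDS 35 and BDS 43 were -0.061 and -0.12. The medians of BDS 7 and BDS 21 were 0.18 and 0.14 with housekeeping scaling.

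**Figure D4:**
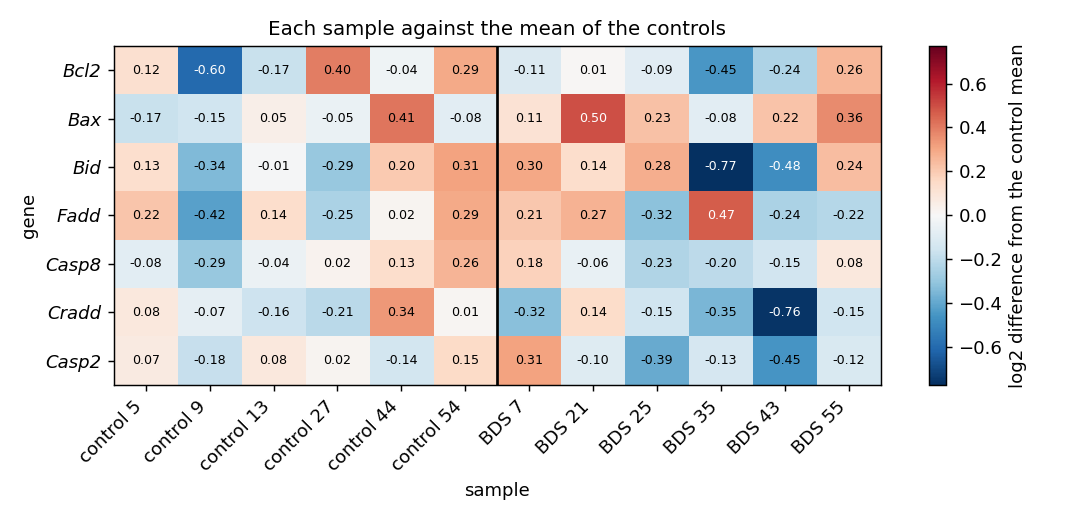
Log2 difference of each sample (columns) from the mean of the log2 control values, for the 7 apoptosis genes tested (rows; red higher, blue lower). Control 9 is below 0 in 7 of 7 genes, and the deepest values are Bid in BDS 35 (-0.77) and Cradd in BDS 43 (-0.76).

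Ratios of raw counts within a sample need no scaling between samples, and they were described without a test. The log2 ratio of Bax to Bcl2, the opposed pair of the mitochondrial route, was 2.97 ± 0.42 in controls and 3.30 ± 0.15 in BDS (SD, n = 6). Controls ran from 2.52 to 3.42 and fell into a lower set (controls 5, 27 and 54, at 2.68, 2.52 and 2.59) and a higher set (controls 9, 13 and 44, at 3.42, 3.19 and 3.42). In BDS 21 and BDS 25 Bcl2 was under background, so their ratios of 3.46 and 3.28 rest on a level that was not measured. The other BDS samples, BDS 7, BDS 35, BDS 43 and BDS 55, lay at 3.19, 3.34, 3.43 and 3.08, above the control mean, and BDS 43 was also just above the highest control. The difference of 0.33 was 0.35 without BDS 21, BDS 25 and BDS 55. Leaving out 1 sample gave 0.24 (without control 27) to 0.42 (without control 9 or control 44). The difference was 0.59 with background subtracted. Bcl2 lies near background, where subtraction changes a count most.

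The other ratios differed by less than the SD of either group over all 12 samples. Bid to Bcl2 was 3.07 ± 0.35 in controls and 3.13 ± 0.30 in BDS, with control 27 lowest at 2.39, and the difference of 0.054 was 0.31 with background subtracted and -0.053 without BDS 21, BDS 25 and BDS 55. It rests on the same Bcl2 counts under background in BDS 21 and BDS 25. Casp8 to Fadd was 4.98 ± 0.21 and 4.89 ± 0.35, with a difference of -0.092, or -0.20 without those 3 samples. Casp8 to Bid, the caspase and its substrate, was 3.90 ± 0.18 and 3.88 ± 0.39, with BDS 35 and BDS 43 at 4.46 and 4.23 above the highest control and BDS 25 at 3.38 below the lowest. Its difference of -0.014 became 0.26 without the 3 samples. Casp2 to Cradd was 1.76 ± 0.27 and 1.88 ± 0.34, with BDS 7 highest of all at 2.40. Its difference of 0.12 was 0.38 without the 3 samples, 0.016 without BDS 7 and 0.022 without control 44.

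**Figure D5:**
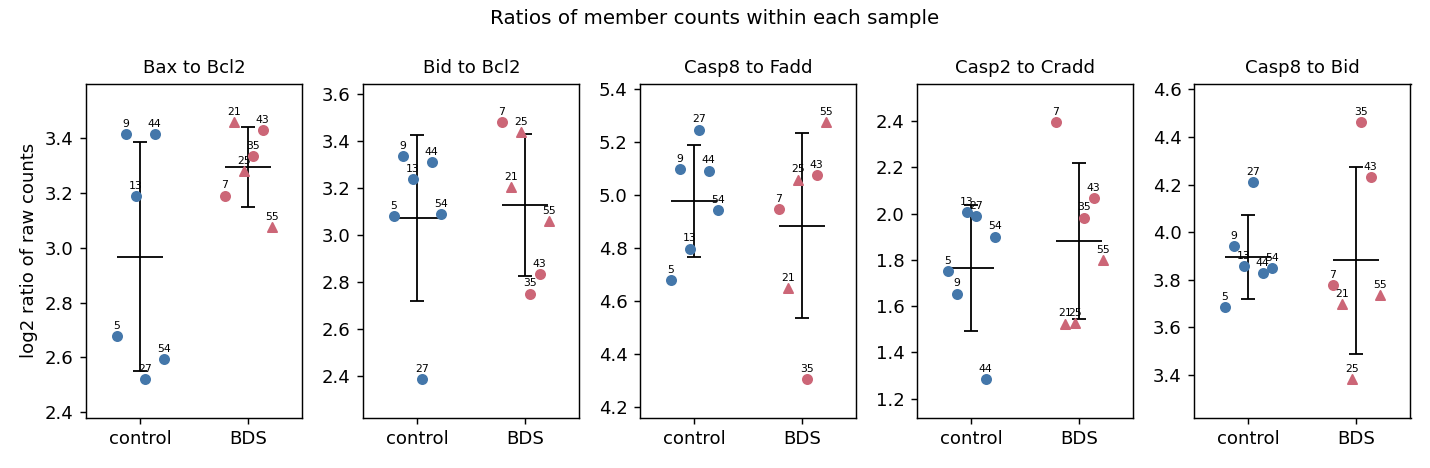
Log2 ratios of raw counts within each sample (vertical axis, a separate range for each panel) for 5 pairs of apoptosis genes; bars are the mean and whiskers the SD, and triangles mark BDS 21, BDS 25 and BDS 55. For Bax to Bcl2 the BDS samples lie between 3.08 and 3.46, with Bcl2 under background in BDS 21 and BDS 25, and the controls between 2.52 and 3.42.

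Other genes of the cell-death pathways were read from the same test. Of 54 listed symbols 19 were on the panel and 15 could be tested. None passed the adjusted threshold, 9 had log2 fold changes below 0 and 6 above (6 and 9 with TMM scaling), and the median was -0.072 against -0.10 for the panel. One, Traf6, a ubiquitin ligase of Toll-like and interleukin-1 receptor signalling, had an unadjusted p under 0.05, where 11.5% of the panel was lower at that level. Its means were 1498 ± 119 and 1245 ± 218 normalized counts (control and BDS; SD, n = 6), at a log2 fold change of -0.27 ± 0.11 (SE; adjusted p = 0.38). With TMM scaling it was -0.17 (unadjusted p = 0.13), and the one pathway gene under 0.05 was Trp53. Without BDS 21, BDS 25 and BDS 55, 0 of 15 pathway genes were under 0.05 in edgeR, where 20 of 362 tested genes were.

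Trp53, which encodes p53, an activator of Bax transcription, averaged 521 ± 31 normalized counts over the controls and 598 ± 108 over the BDS samples (SD, n = 6). Its log2 fold change was 0.20 ± 0.11 (SE; adjusted p = 0.44), and 0.28 with TMM scaling (unadjusted p = 0.023, where 8.96% of the panel passed 0.05), with BDS samples spread from 481 to 769 and controls from 479 to 565. Casp1, the inflammasome caspase that matures interleukin-1, differed by -0.27 ± 0.19 with BDS 7 highest of its group at 227 normalized counts, and Traf2, an adaptor of tumour necrosis factor receptors, by -0.084 ± 0.079 (log2, SE). Card9, an adaptor of C-type lectin receptors, differed by 0.17 ± 0.12. Prf1, the perforin of cytotoxic lymphocytes, differed by -0.67 ± 0.37, with controls from 51.7 to 325 and control 44 at the top. Prf1 is also on the NK cell marker list, of which 3 of 6 genes were present and whose summed level was 225 to 484 in controls and 212 to 309 in BDS. Its part in the apoptosis genes was not tested.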

How the data were processed

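The deposited table holds raw barcode counts per probe with no normalization, judged from its values. The authors' second deposited table holds rounded values, scaled by positive controls and housekeeping genes per the design text and treated here as scores, with group means as scores, percent of samples above background, fold (a ratio) and an unadjusted p-value per gene, per the file headers. The sources used here do not give the software that read the barcodes.

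Each sample was scaled by the geometric mean of the 6 housekeeping genes named in the design text (Alas1, Gapdh, Oaz1, Polr1b, Sdha, Tbp), set relative to the geometric mean over samples. Genes above the negative-control mean plus 2 SD in at least 40% of samples (5 of 12) were kept. BDS was tested against control in edgeR 4.0.16 (quasi-likelihood, R 4.3.3, no covariates) and Benjamini-Hochberg adjustment over the 357 genes; intervals are 95%. The test was checked on simulated counts in which 200 of the 357 genes were changed. It called 34.2% of the 1.25-fold and 78.2% of the 1.5-fold changes. With that many changed genes the adjusted threshold is easier to pass than where few genes change. The rates for these data can therefore be lower, and small or moderate changes can be missed. Alternatives used limma 3.58.1, DESeq2 1.42.0 (parametric dispersion fit), other scalings and filters, background subtraction with a floor of 1, covariates and left-out samples. Probes differ in efficiency, so levels of different genes were not compared.

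The members, lists, pairs and alternatives were chosen with earlier results of these data known. Named are all members, and of the other pathway genes those with an unadjusted p under 0.05, filled up to 6 by smallest p; Fasl, which was untestable, was named after its values were seen.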

Additional observations from a re-analysis of the deposited data

Results flagged for a closer look

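In all, 36 groups of 6 samples were examined. They were the 7 tested apoptosis genes, the 6 named pathway genes and the 5 ratios, each in controls and in BDS. Of these, 4 held a sample far from the other 5, where about 1 group in 20 would by chance. The groups share samples and the ratios reuse the same gene counts, so the 4 cannot be weighed against that rate. Control 44 was high in Bax (306.2 normalized counts) and in Prf1 (325.4). BDS 7 was high in Casp1 (227.0 normalized counts). Control 27 was low in the log2 ratio of Bid to Bcl2 (2.386).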

How the results depend on the processing

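No apoptosis gene and no other pathway gene passed the adjusted threshold under any of the 31 alternatives. Over the panel 0 genes passed, but 16 with voom and quality weights, 1 with positive-control scaling and 0 to 4 with 1 sample left out (4 without BDS 7). Bcl2, Casp2 and Cradd stayed below 0 under all alternatives that gave a value, from -0.60 to -0.042, -0.53 to -0.0034 and -0.71 to -0.16 (log2 fold change); with only genes above background in all samples, Bcl2 gave none. Signs turned in 22 of 216 combinations of gene and alternative. Bid and Casp8 turned to 0.075 and 0.030 with TMM, 0.067 and 0.023 with DESeq2's factors in edgeR, 0.068 and 0.023 in DESeq2 with its own factors and 0.054 and 0.011 with the total count, and Casp8 to 0.054 with the Rpl19 to Polr2a covariate. With positive-control scaling Bax was -0.20 and Fadd -0.37. Fadd was -0.026 with voom and -0.015 with background subtracted. With 1 sample left out, Bid ran from -0.089 to 0.098, Fadd from -0.061 to 0.10 and Bax from 0.16 to 0.31. The cause was not tested. Bcl2 lies near background and Fas under it, and the part of total count in this was not tested. No paired analysis was possible because control and BDS pups came from different litters and no litter is given for each pup.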
